A study of Mus musculus with 6 samples.

Results

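The genes described here are 41 genes of antioxidant defence: the NRF2 regulators, the enzymes of the glutathione and thioredoxin systems, peroxiredoxins, superoxide dismutases and catalase, pentose phosphate enzymes, metallothioneins and ferritins. They were chosen by name, from known function, but with earlier results of these data known, so counts over them are descriptions only. All 41 were found among the 49671 genes of the table. Their RNA was measured in 6 bulk libraries of keratinocytes from the ear epidermis of CD1 mice, an outbred stock, with 2 libraries for each of 3 groups: females, intact males and males that had been castrated. Each library held polyA RNA of 100000 living cells with integrin alpha 6 but without CD34 on their surface, a gate that takes basal cells of the epidermis between hair follicles and removes bulge cells of the follicle. Each library pooled 2 mice of 1 litter, so a p-value below measures the spread between pools, and litter cannot be told apart from sex or castration. No mutant allele or drug is named for any group, intact males are the reference for both sex and castration, and the sources used here give neither the age of the mice nor the time since castration.

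NRF2, encoded by Nfe2l2, is a transcription factor that the adaptor KEAP1 holds at a low level by passing it to a CUL3 ubiquitin ligase for destruction. Oxidants and electrophiles modify cysteines of KEAP1, NRF2 then accumulates, pairs with a small MAF protein and binds the antioxidant response element in front of genes for glutathione synthesis, thioredoxin reduction, quinone reduction and NADPH supply, while BACH1 competes for the same element. NRF2 activity therefore depends largely on protein stability, which RNA does not measure. In the epidermis this system is known for protecting keratinocytes against ultraviolet light, oxygen radicals and reactive chemicals.

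The letters of the antioxidant response element core, TGACNNNGC on either strand, were searched in the RefSeq promoter windows of build GRCm38.p6, which run from 250 bases before to 50 bases after a start listed for the gene. Windows were found for 36 of the 41 genes, and 11 of these held the letters (30.6%), against 14.0% of all 27025 genes with a window. Hmox1, Gclc, Gsr, Prdx6 and Sod3 had no window. The stretches below are shown because they lie before a listed start of regulators and enzymes whose values are given further on. They read 5′ to 3′ on the strand of the gene, with the matching letters in capitals: Nfe2l2 at chr2:75704880-75704913 (minus strand, first matching base at position -240 from the start), Gclm at chr3:122245408-122245446 (plus strand, -134), Prdx1 at chr4:116685451-116685489 (plus strand, -133), Txnrd1 at chr10:82859099-82859137 (plus strand, -92), Sod1 at chr16:90220691-90220729 (plus strand, -56), G6pdx at chrX:74428914-74428952 (minus strand, -57) and Mt2 at chr8:94172524-94172562 (plus strand, -79).
Nfe2l2: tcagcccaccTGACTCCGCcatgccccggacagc
Gclm: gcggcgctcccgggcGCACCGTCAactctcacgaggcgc
Prdx1: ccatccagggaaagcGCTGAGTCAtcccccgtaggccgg
Txnrd1: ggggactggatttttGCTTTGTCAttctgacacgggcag
Sod1: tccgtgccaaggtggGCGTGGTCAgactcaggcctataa
G6pdx: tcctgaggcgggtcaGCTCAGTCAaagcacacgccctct
Mt2: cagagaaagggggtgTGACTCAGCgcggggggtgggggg
Txnrd1 has 3 windows, and the stretch shown belongs to a start inside the gene: it lies 25148 bases downstream of the first base of the GENCODE gene. The G6pdx stretch likewise begins 242 bases inside the GENCODE gene. In Nfe2l2 and Mt2 the letters stand on the strand of the gene, and in the other 5 on the opposite strand. The remaining genes with a match were Srxn1, Pgd, Mafk and Mafg. A match shows the letters only, and no match says only that they are not in this window.

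The libraries held 8412487 (female replicate 2) to 9648154 (female replicate 1) reads, and 1 read was worth 0.102 to 0.128 CPM, the reads of a gene relative to the total of its library after scaling. The basal keratinocyte markers Krt5, Krt14, Itga6, Itgb4, Trp63 and Col17a1 summed to 31830 to 37050 CPM. Markers of melanocytes reached a sum of 70.0 CPM in 1 library, and those of bulge cells, leukocytes, fibroblasts, endothelium, Merkel cells and erythrocytes each summed to at most 36 CPM. The summed level of 5 suprabasal markers (Krt1, Krt10, Krtdap, Ivl and Lor) was 771 and 638 CPM in males, 1058 and 1357 in females and 1029 and 1074 after castration. The summed level of 7 immediate early and heat shock genes, which can rise during cell dissociation, was 898 and 830 CPM in males, 1169 and 1240 in females and 1062 and 1273 after castration. Both sums were thus lower in each male library than in any other library. Junb and Fos carry most of the second sum, and its heat shock genes ran the other way: Hspa1a was at 137 and 147 CPM in males, 107.5 and 90.7 in females and 121.5 and 115.4 after castration, and Hspa1b was also highest in both males. Female replicate 2 had the lowest scaling factor (0.927, against 1.005 to 1.03 in the other libraries), and values without it are given where they change a result.

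The 41 genes took 0.692% to 0.821% of all reads, and their levels, per kilobase of exon so that genes can be compared, ran from 0.238 to 548 CPM per kb. The highest were Ftl1, the light chain of ferritin, at 548 CPM per kb, Gpx1, the main cytosolic glutathione peroxidase, at 498, Fth1, the ferritin heavy chain, at 430, Mt2 at 320.1, Prdx1 at 250.3 and Mt1 at 230.1 CPM per kb as means of the 6 libraries. Gpx1 lay above Ftl1 in females and below it in intact and castrated males, as the plot of levels by exon length shows. At the other end stood Gclm at 2.51 CPM per kb, Gpx2, known from gut epithelium, at 0.567, Sod3, the extracellular superoxide dismutase, at 0.326, and Gpx3, a secreted peroxidase, at 0.238. Gpx3 lay at 0.228 to 0.569 CPM in all 6 libraries and did not pass the filter on low values, so 40 of the 41 genes were tested. Sod3 passed the filter only through male replicate 1 and the castrated male libraries, where it was highest.

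**Figure D1:**
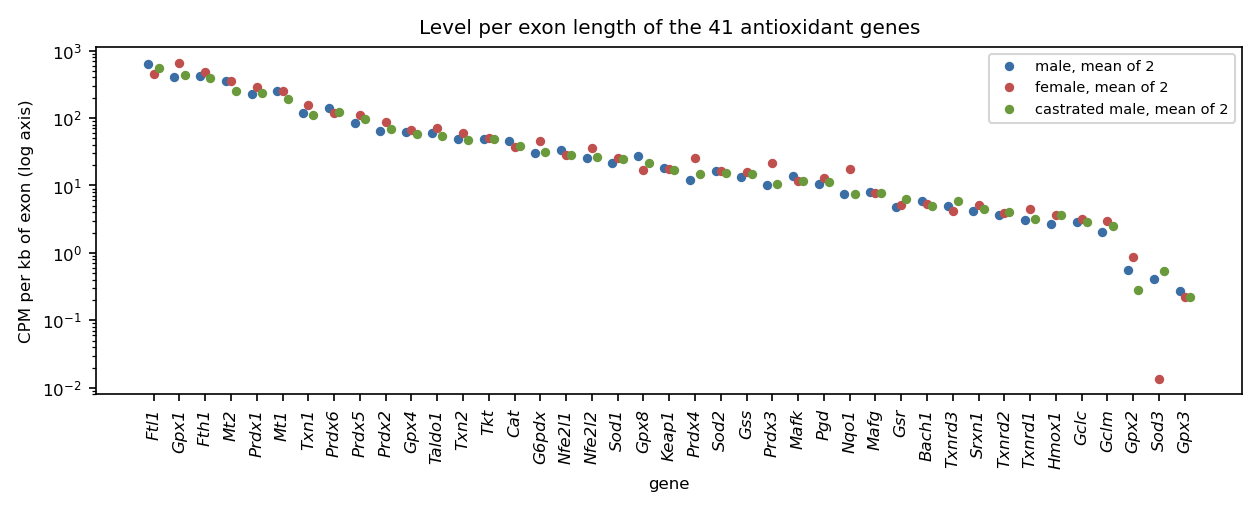
Mean level of each of the 41 genes in CPM per kilobase of exon (log axis), as 1 point per group of 2 libraries, ordered by the mean of all libraries. Ferritin chains, Gpx1, metallothioneins and Prdx1 lie highest, and in most genes the 3 points lie close together, Sod3 being the widest apart.

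The first comparison asked how basal cells of females and males differ. Of the 40 genes tested, 1 rose in females at an adjusted p below 0.05 and none fell, also with voom precision weights in limma, where 3.7% of all 15413 genes tested were higher and 2.39% lower. By the unadjusted p below 0.05, 10 of the 40 were higher and 3 lower in females, against 13% and 11.9% of all genes. In 16 of the 40 both female libraries lay above both male libraries and in 7 both lay below, against 26.6% and 27.2% of all genes. The share called at the adjusted p was therefore no higher than among all genes, while the fold changes lay more often on the female side: 29 of 40 were positive (72.5%, against 48.9% of all genes tested), with a median log2 fold change of 0.18 against -0.01. That median depended on the libraries used, at 0.07 without female replicate 2, 0.12 without male replicate 2, 0.29 without male replicate 1 and 0.30 without female replicate 1. Fewer cells of a type and less RNA per cell cannot be told apart in bulk libraries.

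**Figure D2:**
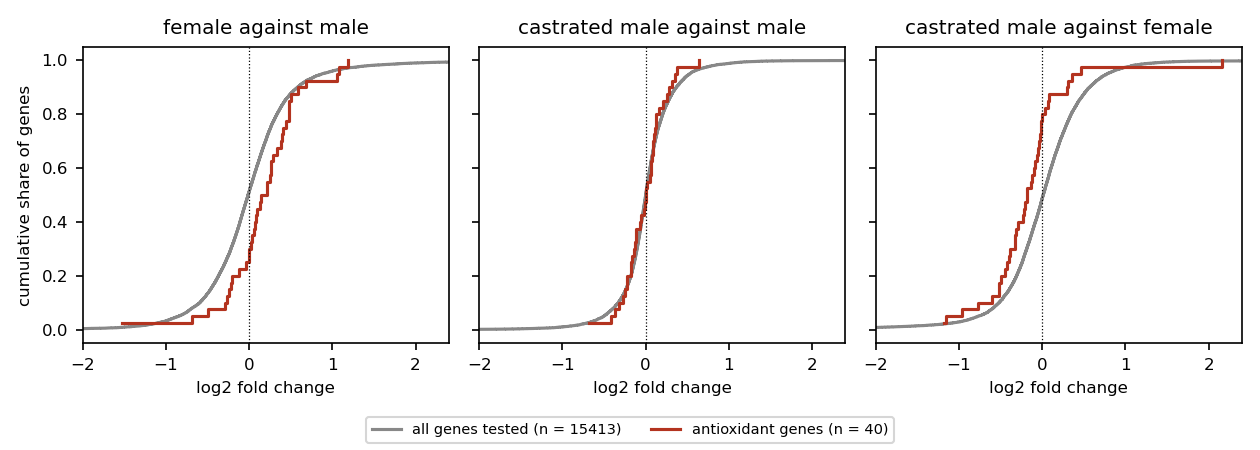
Cumulative share of genes by log2 fold change, with all 15413 genes tested in grey and the 40 antioxidant genes in red, for the 3 comparisons. The red curve lies to the right of the grey one for females against males (medians 0.18 and -0.01), close to it for castrated against intact males, and to the left for castrated males against females (medians -0.18 and 0.01).

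Among the regulators, Nfe2l2 itself was the one whose RNA differed most between the sexes. Its level was 90.8 and 102.6 CPM in the male libraries (replicates 1 and 2 throughout), 128 and 147 in the female libraries and 98.8 and 103 in the castrated male libraries. Both female libraries lay above the other 4, and the castrated libraries lay among or just above the intact males. The group means were 96.7 ± 8.36 CPM in males, 138 ± 13.3 in females and 100.8 ± 2.73 after castration (SD, n = 2 libraries each). The log2 fold change of females against males was 0.51 ± 0.13 (standard error, 95% interval 0.21 to 0.80), and its limma adjusted p of 0.055 missed the threshold. Without female replicate 2 the log2 fold change was 0.41. Keap1, the repressor of NRF2, was close in all groups, at 82.9 and 84.8 CPM in males, 77.2 and 86.3 in females and 82.1 and 78.3 after castration. Its log2 fold change of females against males was -0.04, with a 95% interval from -0.32 to 0.24. The ratio of Nfe2l2 to Keap1 RNA within a library was therefore 1.10 and 1.21 in the male libraries, 1.66 and 1.70 in females and 1.20 and 1.31 after castration, with both female ratios above the other 4.

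Nfe2l1, a relative of NRF2 known for control of proteasome genes, ran the other way, at 184 and 188 CPM in males, 146 and 164 in females and 150.1 and 157 after castration. Both male libraries were the highest of the 6, and the limma adjusted p was 0.208 for females and 0.834 for castrated males against males. The small MAF partners Mafg and Mafk and the competitor Bach1 had log2 fold changes of -0.22 to -0.00 in females against males, none with an adjusted p under 0.4. In Mafk and Bach1 male replicate 1 was the highest library, at 60.1 and 41.5 CPM. Male replicate 2 was at 47.5 CPM in Mafk, just above the female and castrated libraries (44.8 to 46.7 CPM). In Bach1 it was at 31.5 CPM, within their range (30.17 to 34.15 CPM), so the higher male mean of Bach1 rested on 1 library. Over the 6 regulators 1 fold change was positive and the median was -0.08, so the regulators as a group did not share the side of Nfe2l2.

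**Figure D3:**
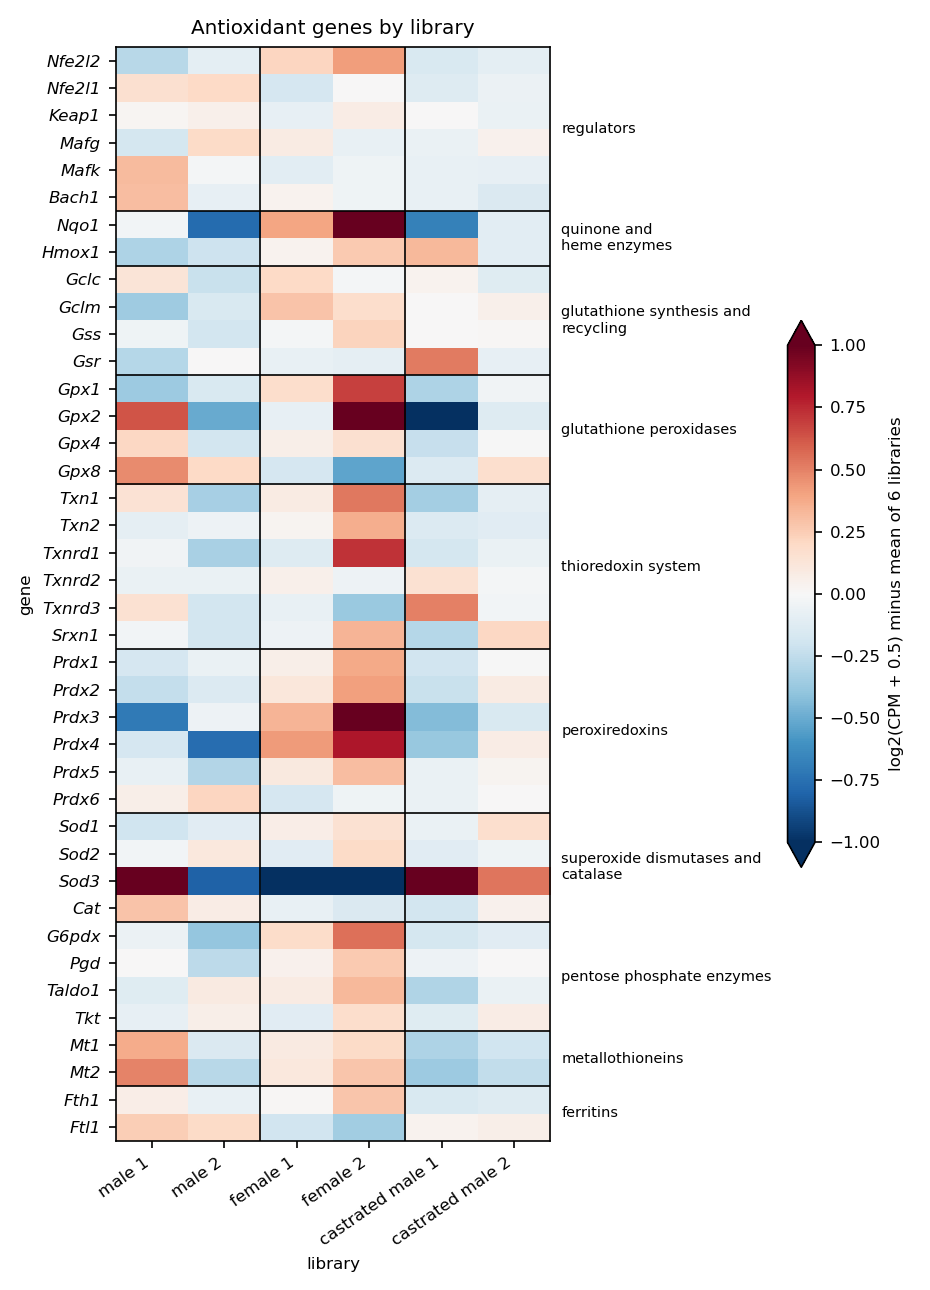
The 40 tested genes by library, coloured by log2(CPM + 0.5) minus the gene's mean over the 6 libraries, with genes ordered by role and the colour scale ending at -1 and 1. The columns of both female libraries hold the most red cells (24 and 28 genes above their own mean, against 10 to 18 in the other libraries), most of all female replicate 2 among peroxiredoxins, Gpx1 and Nqo1.

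Nqo1, a quinone reductase and a commonly used readout of NRF2 activity, had the largest positive fold change of the 40 genes. It was measured at 14.7 and 8.58 CPM in males, 19.8 and 35 in females and 9.21 and 13.9 after castration. The female libraries lay above all others but were also far apart, and the castrated range lay within the male range. The log2 fold change was 1.19 ± 0.34 in females against males (limma adjusted p = 0.0746), 0.79 (adjusted p = 0.475) without female replicate 2 and 0.80 (adjusted p = 0.238) without male replicate 2. Hmox1, heme oxygenase 1, which NRF2 and BACH1 both control, was low, at 4.58 and 4.94 CPM in males, 5.93 and 7.05 in females and 7.39 and 5.35 after castration. Both males were the lowest of the 6, and the adjusted p was 0.374 for females against males.

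In glutathione synthesis and recycling, all 4 genes had positive fold changes in females against males, with a median of 0.17, and none was called. Gclm, the modifier subunit of glutamate-cysteine ligase, averaged 13.1 ± 1.30 CPM in males, 18.4 ± 1.01 in females and 15.9 ± 0.333 after castration. Its 3 groups did not overlap, castrated males lay between the others, and the log2 fold change of females against males was 0.48 ± 0.18 (limma adjusted p = 0.148). Gclc, the catalytic subunit of the same enzyme, did not show that order: it was at 12.3 and 9.52 CPM in males, 12.9 and 11.0 in females and 11.5 and 10.2 after castration, with overlapping groups. Gss, glutathione synthetase, averaged 79.6, 92.6 and 86.7 CPM in intact males, females and castrated mice, and its female libraries lay above the males. For Gsr, which returns oxidised glutathione to its reduced form, castrated male replicate 1 (21.4 CPM) stood above the other 5 libraries (12.04 to 14.8 CPM).

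The glutathione peroxidases use glutathione to reduce hydrogen peroxide and lipid peroxides, and Gpx1 and Gpx8 lay on opposite sides in the comparison of the sexes. Gpx1 was at 541 and 624 CPM in males, 782 and 1118 in females and 560 and 676 after castration. Both female libraries were above the other 4, and the log2 fold change of females against males was 0.69 ± 0.19 (limma adjusted p = 0.0655), and 0.43 (adjusted p = 0.358) without female replicate 2. Gpx8, a peroxidase of the endoplasmic reticulum, was at 31.0 and 25.6 CPM in males, 19.7 and 15.3 in females and 20.1 and 25.1 after castration. Its male libraries lay above all others and its females below all others. The log2 fold change of females against males was -0.68 ± 0.20 (limma adjusted p = 0.0818), and -0.51 without female replicate 2. Gpx4, which protects membranes against lipid peroxidation and ferroptosis, had means of 108, 115 and 98.3 CPM in intact males, females and castrated mice. Its intact male libraries overlapped both other groups, while both castrated libraries lay below both female libraries. Gpx2 ranged from 0.455 to 4.10 CPM, where few reads carry the value, and its male and female ranges overlapped.

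In the thioredoxin system, 5 of the 6 genes had positive fold changes in females against males (median 0.26) and none reached an unadjusted p below 0.05. Thioredoxin itself, Txn1, was at 148 and 106 CPM in males, 141 and 192 in females and 105 and 125 after castration. Male replicate 1 exceeded female replicate 1, so the sexes overlapped (limma adjusted p = 0.26). Txnrd1, the cytosolic thioredoxin reductase and a known NRF2 target, was at 23.6 and 19.3 CPM in males, 22.1 and 40.4 in females and 21.4 and 23.1 after castration. Here female replicate 2 alone stood out, and the other 5 libraries lay within 19.3 to 23.6 CPM. The mitochondrial pair gave Txn2 means of 205 ± 3.46, 249 ± 41.5 and 198 ± 1.91 CPM and Txnrd2 means of 16.2, 17.0 and 17.8 CPM in intact males, females and castrated mice. Txnrd3, known from testis, had the single negative fold change of the group (-0.21), and Srxn1, which repairs overoxidised peroxiredoxins, averaged 11.9, 14.4 and 12.7 CPM with overlapping groups.

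The peroxiredoxins, which reduce peroxides at the expense of thioredoxin, held the 1 gene that passed the test. Prdx4, the peroxiredoxin of the endoplasmic reticulum, was at 30.6 and 20.1 CPM in males, 46.4 and 60.6 in females and 26.4 and 36.2 after castration. Both female libraries lay above the other 4, and castrated and intact males overlapped. It rose in females by a log2 fold change of 1.08 ± 0.24 (2.12-fold, 95% interval of the log2 value 0.53 to 1.63, limma adjusted p = 0.0383). The call was lost without female replicate 2 (0.89, adjusted p = 0.307), male replicate 2 (0.76, adjusted p = 0.119) or castrated male replicate 1 or 2 (adjusted p = 0.0795 and 0.0644). It was also lost with no filter on low values or no intensity trend in the variance prior (adjusted p = 0.114 for each), with the replicate number as a block (0.0585) and with only the females and males in the fit (0.0652), and over all alternatives the adjusted p ran from 0.0217 to 0.307. Prdx4 lies on the X chromosome (chrX:155323918-155340754, minus strand, GRCm38).

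Prdx3, the mitochondrial peroxiredoxin, had a fold change of the same size, at 11.7 and 18.7 CPM in males, 24.7 and 39.5 in females and 14.2 and 17.4 after castration. Both female libraries were again the highest, with a log2 fold change of 1.05 ± 0.28 (limma adjusted p = 0.063). It was 0.72 without female replicate 2 and 0.74 without male replicate 1. Without male replicate 2 it was 1.35, and without female replicate 1 it was 1.39. Prdx1, the abundant cytosolic member, was at 671 and 719 CPM in males, 784 and 982 in females and 660 and 754 after castration, a log2 fold change of 0.34 ± 0.15 (adjusted p = 0.201), and 0.17 (adjusted p = 0.659) without female replicate 2. Prdx2 averaged 194 ± 9.16, 266 ± 38.4 and 211 ± 31.9 CPM and Prdx5 183 ± 20.1, 239 ± 24.9 and 205 ± 9.48 CPM in intact males, females and castrated mice, with log2 fold changes of 0.45 (adjusted p = 0.111) and 0.38 (adjusted p = 0.12) for females against males. The Prdx2 value was 0.30 without female replicate 2, and the Prdx5 value 0.25 without male replicate 2. Female libraries lay above male libraries in these 5 peroxiredoxins, as they did in 26.6% of all genes tested. Prdx6, the member that uses glutathione rather than thioredoxin, was the exception: its means were 666 ± 51.3, 564 ± 34.1 and 595 ± 20.7 CPM, and both males lay above both females (log2 fold change -0.24, adjusted p = 0.268). Prdx4 and Gpx8, both of the endoplasmic reticulum, thus lay on opposite sides in females, and the ratio of Prdx4 to Gpx8 was 0.986 and 0.784 in the male libraries, 2.35 and 3.98 in females and 1.31 and 1.45 after castration. Gpx7, a further peroxidase of that compartment from the longer list described at the end, was low, at 2.34 and 1.53 CPM in males, 2.56 and 3.59 in females and 1.25 and 2.28 after castration (log2 fold change of females against males 0.56, adjusted p = 0.386).

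**Figure D4:**
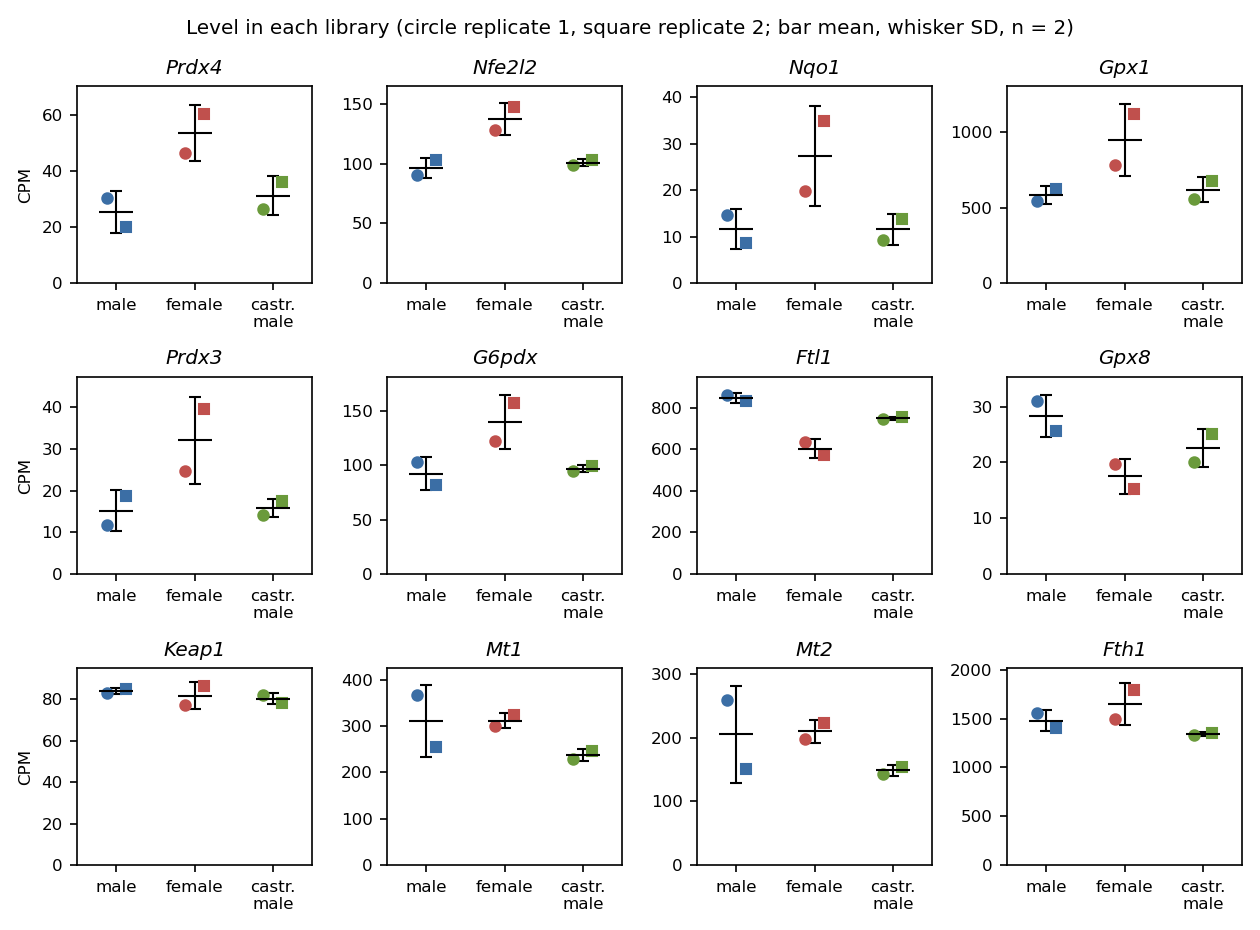
Level in CPM of 12 genes in each library (circle replicate 1, square replicate 2), with the group mean as a bar and the SD as a whisker (n = 2); each vertical axis starts at 0. Female libraries lie above all others in Prdx4, Nfe2l2, Nqo1, Gpx1, Prdx3 and G6pdx and below all others in Ftl1 and Gpx8, while Keap1 is nearly level.

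Superoxide dismutases turn superoxide into hydrogen peroxide and catalase removes it, and none of the 4 genes was called. Sod1, the cytosolic enzyme, was at 82.9 and 88.0 CPM in males, 99.9 and 106 in females and 90.9 and 107 after castration. Both males were the lowest (limma adjusted p = 0.245 for females against males). The mitochondrial Sod2 was at 156 and 171 CPM in males, 147 and 182 in females and 147 and 154 after castration, a log2 fold change of 0.00 with a 95% interval from -0.31 to 0.31. Cat was at 128 and 110.1 CPM in males, 99.7 and 94.8 in females and 92.1 and 108 after castration. Both males were the highest, and the log2 fold change of females was -0.29 ± 0.14 (adjusted p = 0.234). Per library, the ratio of Gpx1 to Cat, the RNAs of 2 enzymes that remove hydrogen peroxide, was 4.23 and 5.67 in the male libraries, 7.85 and 11.8 in females and 6.08 and 6.25 after castration.

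Sod3 rests on few reads: 27 and 2 in the male libraries, 1 and 0 in females and 24 and 12 after castration, which is 2.88 and 0.235, 0.102 and 0, and 2.73 and 1.37 CPM. Both males lay above both females, but male replicate 2, with 2 reads, was closer to the females than to male replicate 1. Summed over a group, the ratio to females after library size was 28.5 in males (95% counting interval 4.72 to 1163) and 36.0 in castrated males (6.06 to 1461), intervals that cover counting error only. The log2 fold changes were -1.52 ± 0.66 in females against males (limma adjusted p = 0.197) and 2.16 ± 0.66 in castrated males against females (adjusted p = 0.12), and such values depend on the pseudocount: with 2 CPM in place of 0.5 the second was 0.96. The first was -2.63 without male replicate 2 and -0.42 without male replicate 1. Since Sod3 entered the test only through libraries where it was high, its p-values against females are no support for a difference. The 5 markers of fibroblasts, a cell type that makes Sod3, summed to 27.0 and 12.3 CPM in males, 14.8 and 7.69 in females and 9.55 and 11.3 after castration. Col1a1, Col3a1 and Pdgfra were under 1 CPM in each library. Dcn was at 21.0 and 7.52 CPM in males, 10.5 and 4.49 in females and 5.23 and 5.01 after castration. Col1a2 was at 4.90 and 4.46 CPM in males, 3.68 and 2.31 in females and 3.64 and 5.81 after castration. Whether fibroblasts have a part in the Sod3 levels was not tested.

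The pentose phosphate enzymes supply the NADPH on which glutathione and thioredoxin reductases run. G6pdx, glucose-6-phosphate dehydrogenase, the entry step, was at 103 and 81.7 CPM in males, 122 and 157 in females and 94.6 and 98.8 after castration. Both females were above the other 4, with a log2 fold change of 0.59 ± 0.16 (limma adjusted p = 0.0675), and 0.41 (adjusted p = 0.4) without female replicate 2. G6pdx lies on the X chromosome like Prdx4 (chrX:74409483-74429194, minus strand, GRCm38). The steps that follow had smaller values: log2 fold changes were 0.28 for Pgd, 0.22 for Taldo1 and 0.04 for Tkt, all with an adjusted p of 0.265 or more.

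The metallothioneins bind zinc and copper and scavenge radicals, and they did not differ between the sexes beyond the spread of the male libraries. Mt1 was at 366 and 255 CPM in males, 300.5 and 323 in females and 228 and 246 after castration. Mt2 followed nearly the same order of libraries, at 259.7 and 152 CPM in males, 198 and 223 in females and 143 and 155 after castration. Male replicate 1 was the highest library for both, and the ratio of Mt1 to Mt2 stayed between 1.41 and 1.68. The log2 fold changes of females against males were 0.03 for Mt1 (95% interval -0.36 to 0.41) and 0.08 for Mt2 (-0.42 to 0.58). Letters of the metal response element (TGCACNC or TGCGCNC, either strand), the site of the zinc-sensing factor MTF1, were in the windows of both, and in 11 of the 36 genes with a window (30.6%), against 28.2% of all genes.

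Ferritin stores iron in shells of heavy and light chains, and the sexes did not overlap in the light chain but did in the heavy chain. Ftl1 was at 864 and 831 CPM in males, 637 and 572 in females and 745 and 756 after castration. Its 3 groups did not overlap, with castrated males between the others, and the log2 fold change of females was -0.49 ± 0.12 (95% interval -0.77 to -0.21, limma adjusted p = 0.0508). The limma adjusted p was 0.0456 with the filter at 30 reads and 0.0356 on library totals without TMM. It was 0.13 with no filter on low values, and 0.138 with no intensity trend or with only the 2 groups compared. Of 15 alternatives, 12 left Ftl1 uncalled, and its log2 fold change was -0.41 without female replicate 2. Fth1 was at 1557 and 1406 CPM in males, 1494 and 1798 in females and 1332 and 1358 after castration, with overlapping sexes (adjusted p = 0.575). The ratio of Ftl1 to Fth1 was 0.555 and 0.591 in the male libraries, 0.426 and 0.318 in females and 0.560 and 0.557 after castration, so both female ratios were below the other 4. Ftl1 has near-identical pseudogene copies with values of their own in the table (Ftl1-ps1, Ftl2-ps and Ftl1-ps2), and reads could have been split among them.

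**Figure D5:**
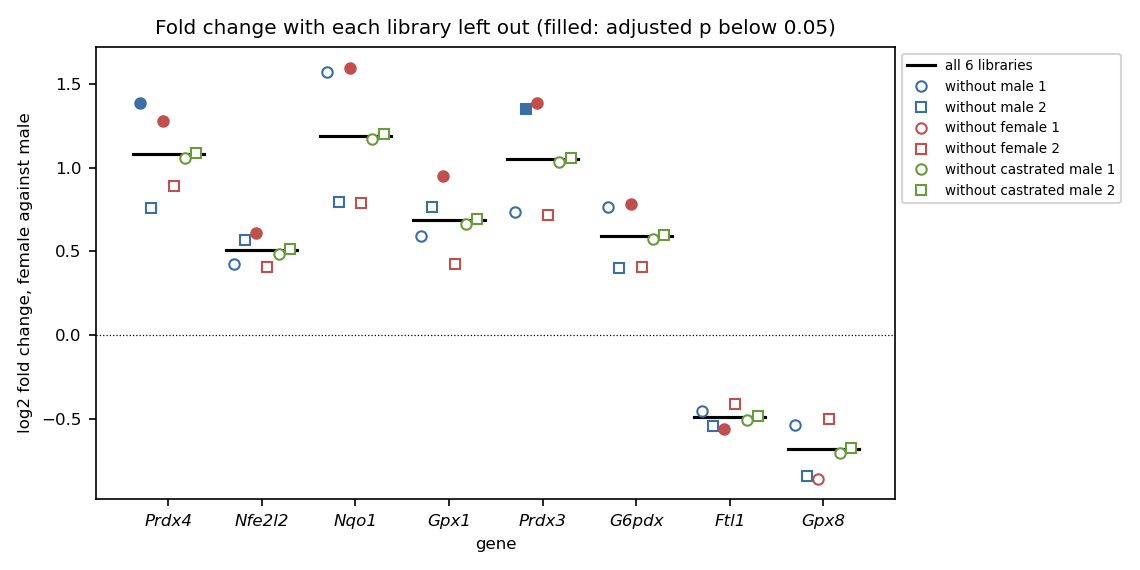
Log2 fold change of females against males for 8 genes with all 6 libraries (black line) and with each library left out in turn (symbols; filled where the adjusted p is below 0.05). Female and male libraries do not overlap in these genes, so the sign could hardly change, and it is the same throughout. Values without female replicate 2 lie nearer to 0 than the black line in all 8 genes.

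In these 8 genes the female and male libraries did not overlap, so leaving a library out could hardly change the sign. The sign held throughout, and the calls did not. With each library left out in turn, the number of the 40 genes called in females against males ran from 0 (without female replicate 2, castrated male replicate 1 or castrated male replicate 2) to 8 (without female replicate 1). The count over all genes moved with it, from 940 with all libraries to 49 without female replicate 2, 204 and 271 without castrated male replicates 1 and 2, and 1773 without female replicate 1. Without female replicate 1 the genes Prdx4, Nfe2l2, Nqo1, Gpx1, Prdx3, G6pdx, Ftl1 and Txnrd1 had an adjusted p below 0.05. Genes with the element's letters in their window had a median log2 fold change of 0.28 (9 of 11 positive), and those with a window but no letters 0.12 (17 of 24 positive), given here as a description. Shorter exon length went with higher values in females (Spearman rho -0.132 over 15362 genes and -0.15 over the 40), a description across genes, which are not independent, and its part in the result was not tested. The suprabasal and immediate early sums given above were higher than in intact males both in females and after castration. The median log2 fold change of the 40 genes against intact males was 0.18 in females and 0.01 after castration. Whether what these sums measure has a part in the medians was not tested.

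The second comparison, of castrated with intact males, asked what removal of the testes goes with. None of the 40 genes was called in either direction, where 0.013% of all genes tested were higher and 0.026% lower. By the unadjusted p below 0.05, none was higher and 1 lower, against 3.1% and 2.83% of all genes, and voom weights in limma also called none. Both castrated libraries lay above both intact males in 6 genes and below them in 11, against 17.3% and 18.2% of all genes. The median log2 fold change was 0.01, against 0.00 over all genes, with 21 of 40 positive. Without 1 library at a time it ran from -0.06 to 0.05, so its sign depended on the library left out.

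The gene with the unadjusted p below 0.05 was Nfe2l1, with a log2 fold change of -0.27 ± 0.12 (limma adjusted p = 0.834). The next smallest p were those of Mt1 (-0.37 ± 0.17, adjusted p = 0.862), Mt2 (-0.42 ± 0.22, adjusted p = 0.909) and Cat (-0.25 ± 0.14, adjusted p = 0.925, and -0.12 without castrated male replicate 1). For both metallothioneins the difference rested on male replicate 1: without it the log2 fold changes were -0.10 and -0.02, and without male replicate 2 they were -0.63 and -0.81. The sum of 3 erythrocyte markers was also highest in male replicate 1 (28.0 CPM, against 5.35 to 8.88 in the other libraries). Of these markers, Hbb-bs and Hba-a1 were highest in that library. Alas2 was not, at 1.278 CPM there and 0.6411 to 2.275 CPM in the other libraries. The part of erythrocytes in the metallothionein values was not tested. For Prdx4 the log2 fold change was 0.31 with a 95% interval from -0.24 to 0.86, and for Nfe2l2 it was 0.06 (-0.23 to 0.36).

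The third comparison set castrated males against females, and it shares its libraries with the other comparisons, so its values are not independent of theirs. None of the 40 genes was called, where 0.571% of all genes were higher and 1.15% lower in castrated males, and voom weights in limma called none either. By the unadjusted p below 0.05, 2 were higher and 10 lower in castrated males, against 10.4% and 11.3% of all genes. Both castrated libraries lay above both female libraries in 4 genes and below in 20, against 29.4% and 28.3% of all genes. The median log2 fold change was -0.18 against 0.01 over all genes, and 32 of 40 were negative. It was -0.10 without female replicate 2 and -0.28 without female replicate 1, when 5 genes were called lower (Nqo1, Gpx1, Txn2, Prdx3 and G6pdx). Of all genes, 1323 were called without female replicate 1 (804 of them lower), against 266 with all libraries.

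The 10 genes that were lower at an unadjusted p below 0.05 were Nfe2l2, Nqo1, Gpx1, Txn1, Txn2, Prdx3, Prdx4, G6pdx, Taldo1 and Mt1, and the 2 higher were Sod3 and Ftl1. Nqo1 had a log2 fold change of -1.18 ± 0.34 (limma adjusted p = 0.109), Prdx3 -0.97 ± 0.28 (adjusted p = 0.11), Prdx4 -0.77 ± 0.24 (adjusted p = 0.126) and Nfe2l2 -0.44 ± 0.13 (adjusted p = 0.11). Gpx1 stood at -0.60 ± 0.19 (adjusted p = 0.122) and G6pdx at -0.52 ± 0.16 (adjusted p = 0.127). For these 6 genes both castrated libraries lay below both female libraries. Without female replicate 2 the log2 fold changes were -0.78 for Nqo1, -0.63 for Prdx3, -0.34 for Gpx1 and -0.33 for G6pdx, and without castrated male replicate 1 that of Prdx4 was -0.51. Among the 10, Mt1 stood apart in that its female level was within the male range while its castrated level was below both (-0.39 ± 0.17 against females, adjusted p = 0.221). All 11 genes with the element's letters in their window had negative fold changes here, with a median of -0.20, as did 19 of the 24 without them (median -0.23).

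Beyond the 41 genes, a longer list of 73 genes of the same pathways had 67 tested genes. It was likewise chosen by name with earlier results of these data known. Of these, 8 rose in females against males and none fell at an adjusted p below 0.05, where 3.7% of all genes rose and 2.39% fell, and at an unadjusted p below 0.05 there were 15 higher and 4 lower, against 13% and 11.9% of all genes. They were 3 genes of glutathione use (Gsta4 and Mgst2, glutathione transferases, and Glrx, glutaredoxin), the glutathione breakdown enzyme Ggct, the reductases Akr1b8 and Ptgr1, which detoxify reactive carbonyls, Ugdh, which makes the sugar donor for glucuronidation, and Tfrc, the transferrin receptor. Mgst2 was at 15.98 and 15.4 CPM in males, 35.6 and 44.9 in females and 15.1 and 19.1 after castration. Both females were above the other 4, with a log2 fold change of 1.32 ± 0.19 (limma adjusted p = 0.0104). Ptgr1 was at 28.4 and 29.0 CPM in males, 56.1 and 61.9 in females and 35.8 and 46.5 after castration, and its 3 groups did not overlap (1.02 ± 0.16, adjusted p = 0.0148). Glrx was at 17.8 and 16.3 CPM in males, 32.4 and 39.4 in females and 21.0 and 22.4 after castration (1.05 ± 0.17, adjusted p = 0.016).

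The other 5 had log2 fold changes of 1.40 (Gsta4), 1.28 (Akr1b8), 1.22 (Ggct), 0.88 (Tfrc) and 0.81 (Ugdh), with limma adjusted p from 0.0334 to 0.0495. Akr1b8 was at 0.77 without female replicate 2 and Ggct at 0.74 without male replicate 2. For all 8 the call depended on the libraries used and was lost without female replicate 2. The number of calls over all genes moved in the same way with the library left out. The median log2 fold change of the 67 genes was 0.14, against -0.01 over all genes, with 42 positive (62.7%, against 48.9% of all genes). None of the 67 was called in castrated against intact males, where 0.013% of all genes were higher and 0.026% lower, and voom weights called none. At an unadjusted p below 0.05, 2 were higher and 4 lower, against 3.1% and 2.83% of all genes. In castrated males against females Mgst1 (-1.21 ± 0.24, adjusted p = 0.0481) and Mgst2 (-1.21 ± 0.19, adjusted p = 0.0243) fell, and none rose, where 0.571% of all genes were higher and 1.15% lower. At an unadjusted p below 0.05, 3 were higher and 15 lower, against 10.4% and 11.3% of all genes.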

How the data were processed

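PolyA RNA of sorted basal keratinocytes was sequenced in 6 libraries. Per the submitters' processing notes, FastQC, STAR 2.7.5a, Picard and HTSeq 0.11.1 were used with the builds GRCm38 and mm10. No source used here names the annotation, the strand setting or the scaling. As deposited, the values are scores: the authors' table lists 49671 genes whose reads had been scaled to a total of 20000000 per library and rounded to whole numbers. Dividing each column by the value of 1 read (a step) gave whole reads for at least 99.99% of values within the rounding tolerance of 0.5, with totals of 8412487 to 9648154 reads per library.

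Library sizes were adjusted by TMM (trimmed mean of log ratios). Genes with at least 1.16 CPM, worth 10 reads at the median depth, in 2 or more libraries, and with 15 or more reads summed over the 6, entered the test (15413 genes). Because the deposited scores are not counts, the test was limma 3.58.1 (R 4.3.3) on log2(CPM + 0.5), with 1 mean per group, all 6 libraries, an intensity trend in the prior variance and 3 residual degrees of freedom, in place of a count test. Fold changes are on that scale and understate those of genes with few reads. P-values are two-sided and adjusted by Benjamini-Hochberg over all genes tested, with a gene called below 0.05, and the procedure was tested on simulated data. A count of 0 allows up to 3 reads, or 0.307 to 0.385 CPM, for counting error only. Replicates differed by more than sampling noise (chi-square per degree of freedom 4.79 to 13.6). The second male library carries another number in its library name, and the number in its title was used.

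The members, the longer pathway list and the marker lists were chosen with earlier results of these data known. Values in every library are given for called members, the 4 with the smallest p in each comparison and 16 genes set by name. Other members are given by library values, group means, ranges or fold changes. Of the longer list the called genes are named. Per-length levels use the exon length of GENCODE M21 (GRCm38), which counts all exons of a gene and can understate its level. Exons overlap another gene in 12 of the 41 genes, most in Mt2 (73.5% of its exon bases, with the antisense Gm45774), Ftl1 (26.5%), Prdx5 (19.1%), G6pdx (13.6%) and Keap1 (10.9%). Without a known strand setting, reads there cannot be assigned. Promoter windows are from RefSeq (GRCm38.p6).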

Additional observations from a re-analysis of the deposited data

How the results depend on the processing

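The counts of called genes, the medians of the 40 genes and 42 fold changes of single genes were recomputed with other normalizations, pseudocounts, filters and variance priors, with only the compared groups, with a replicate block and without each library (Sod3 where it passed the filter). Ratios between genes, medians of role groups and of the longer list, and other genes were not. The 42 fold changes kept their sign in all 627 values, 525 of which stayed on their side of the threshold, 77 lost it and 25 gained it. Most of the 42 were not called in the main fit, so staying mostly meant staying uncalled. All 77 losses fell on fold changes that had been called. The 42 were picked mainly by small p in these data, so a steady sign was likely from the start. The median of the 40 genes in castrated against intact males (0.01) turned negative without male replicate 1 (-0.02), male replicate 2 (-0.05) or castrated male replicate 2 (-0.06) and with voom precision weights (-0.001), and the other 2 medians kept their sign. Members called in females against males (1) became 0 with no filter, no intensity trend or only the 2 groups, 2 with the filter at 30 reads and 3 on library totals without TMM, and 0 to 8 with a library left out. In castrated males against females (0) they became 1 with only the 2 groups (Sod3) and 0 to 5 with a library left out (5 without female replicate 1: Nqo1, Gpx1, Txn2, Prdx3 and G6pdx). Genes of the longer list called in females (8) became 1 with no filter, 0 with no trend, 3 with only the 2 groups, 4 with voom precision weights, which were chosen after seeing the data, and 0 to 14 with a library left out. In castrated against intact males (0) they ran from 0 to 1 with a library left out, and in castrated males against females (2) they became 1 on library totals, 0 with no filter or no trend, 1 with the filter at 30 reads, 1 with voom, 5 with only the 2 groups and 0 to 14 with a library left out. Of all genes, 940 were called in females against males, 103 with no filter, 103 with no trend, 265 with only the 2 groups and 49 (without female replicate 2) to 1773 (without female replicate 1). In castrated against intact males 6 became 11 with a pseudocount of 2, 2 with no filter and 1 to 74 with a library left out. In castrated males against females 266 became 33 with no filter, 59 with no trend, 88 with voom, 560 with only the 2 groups and 21 to 1323 with a library left out. The cause was not tested.

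Same-numbered libraries share only a number in the labels. Their replicate differences correlated across 15413 genes at -0.153 (male and female), -0.01 (male and castrated) and 0.194 (female and castrated). With the replicate block, 2 members were called in females against males (Gpx1, adjusted p = 0.0301, and Prdx3, adjusted p = 0.026), Prdx4 was not (adjusted p = 0.0585), and in castrated males against females 162 genes and 1 gene of the longer list were called. Count tests (edgeR and DESeq2) were planned for whole reads and were not run, since the values are scaled scores. Genes with few reads, such as Sod3, Gpx2 and Gpx3, are limited by depth.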

Other observations

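A pair of genes of the longer list, picked after their values were seen, touch the supply side of these systems. Txnip, an inhibitor of thioredoxin that glucose induces, was at 838 and 560 CPM in males, 451 and 355 in females and 418 and 455 after castration. Both intact male libraries lay above the other 4, with log2 fold changes of -0.78 ± 0.20 for females (limma adjusted p = 0.0544) and -0.65 ± 0.20 for castrated males (adjusted p = 0.681), neither called. Without male replicate 1 these were -0.48 and -0.35. The female value was called without male replicate 2 (-1.09, adjusted p = 0.0242), without female replicate 1 (-0.94, adjusted p = 0.0411) and with the replicate block (adjusted p = 0.0491). Slc7a11, the cystine transporter that feeds glutathione synthesis, was at 5.11 and 3.76 CPM in males, 6.65 and 15.9 in females and 4.32 and 3.64 after castration. Its female libraries were the highest but lay far apart, with a log2 fold change of 1.15 ± 0.38 against males (adjusted p = 0.111). It was 0.55 (adjusted p = 0.587) without female replicate 2 and 1.75 (adjusted p = 0.0215) without female replicate 1.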
